A study of Mus musculus with 6 samples.

Results

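Endothelial cells line blood and lymphatic vessels, and 38 genes that mark them or govern vessel growth were followed in whole mouse thyroid. They were taken by symbol from a fixed list, drawn up when earlier results of these data were known, and all 38 were among the 21878 genes of the deposited counts and among the 14143 with enough reads to be tested. RNA-seq was performed on thyroid glands of female mice at 12 weeks. There were 3 libraries labelled Thy-Tet1+/+, from wild-type littermates, and 3 labelled Thy-Tet1-/-, from mice in which a Cre active in the thyroid follicular epithelium deletes a floxed *Tet1*. The library titles call the Thy-Tet1+/+ libraries control and the Thy-Tet1-/- libraries treatment. The labels name no drug for either group. Levels are given as CPM, a gene's reads scaled to the library total, after normalising the libraries by the trimmed mean of M-values (TMM).

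Thyroid follicles are wrapped in a dense net of fenestrated capillaries, through which iodide and thyrotropin enter and thyroid hormone leaves. Vascular endothelial growth factors (VEGFs) act on receptor tyrosine kinases of the endothelium, with neuropilins as co-receptors. Angiopoietins act on TEK to steady or loosen the vessel wall, and notch and ephrin signals separate tip from stalk cells and arteries from veins. In whole glands, fewer cells of a type and less RNA per cell cannot be told apart.

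*Tet1* (NCBI gene 52463) went against the label, with counts of 48, 71 and 62 in Thy-Tet1+/+ and 172, 162 and 241 in the Thy-Tet1-/- labelled libraries. Counts were per gene, and the deleted exons were not examined separately, so this does not test the deletion itself. Every direction below is stated for the label alone. Total counts ranged from 8867683 to 19950898 per library, so that 3 counts, taken as the detection floor, equalled 0.150 to 0.338 CPM. No member was below 26 counts in any library. Markers of other tissues varied between libraries. The summed level of 12 skeletal muscle genes ranged from 974 to 7997 CPM in Thy-Tet1+/+ and from 43.0 to 8723 CPM in the Thy-Tet1-/- labelled libraries. For 4 parathyroid genes the ranges were 192 to 31340 CPM and 10625 to 21635 CPM. None of these 16 genes passed the limits given next. The 11 white and brown adipocyte genes summed to 866, 503 and 338 CPM in Thy-Tet1+/+ and to 2644, 1365 and 702 CPM in the Thy-Tet1-/- labelled libraries, and of these *Lep*, *Fabp4*, *Pnpla2* and *Ucp1* rose past them. The 12 leukocyte genes summed to 122 to 379 CPM and to 147 to 372 CPM, with 1 of the 10 tested lower and none higher. *Ptprc* reached 114 CPM and *Cd3e* 27.8 CPM in replicate 3 labelled Thy-Tet1-/-, against at most 32.2 and 4.03 CPM in the other libraries.

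The first question was which vessel genes differed between the labels. The limits were those of the study's own legend, a change of more than 1.5-fold up or down together with p under 0.05 before adjustment, here from the quasi-likelihood test of edgeR. *Egfl7*, *Sox17*, *Sox18*, *Pgf*, *Dll4* and *Ephb4* rose past these limits in the Thy-Tet1-/- labelled libraries, by 1.55-fold to 2.05-fold. *Apln* fell, to 0.453 times its Thy-Tet1+/+ level. The 6 higher members made up 15.8% of the list, and 5.54% of all tested genes were higher past the same limits. The 1 lower member was 2.63% of the list, against 3.66% of all tested genes. With Benjamini-Hochberg adjustment of edgeR's p over all tested genes, 0 members were under 0.05, the smallest adjusted p being 0.0965. In the whole data 16 genes (0.113%) passed that adjusted limit. Without adjustment 9 members (23.7%) had an edgeR p under 0.05. The share of all tested genes under that p alone was not counted, so this number is no result about the list.

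The groups did not overlap for 9 of the 38 members. The 7 with every library labelled Thy-Tet1-/- on top were the 6 genes above and *Gja4* (18.4%, against 12.5% of all tested genes). The 2 in the other direction were *Apln* and *Vwf* (5.26%, against 14.3%). The Wald test of DESeq2 gave an adjusted p under 0.05 to 5 members in the higher direction (13.2%, against 4.16% of the genes it tested) and to 1 in the lower direction (2.63%, against 4.86%). These were *Egfl7*, *Sox17*, *Sox18*, *Pgf* and *Ephb4*, and *Vwf*. A log2 fold change above 0 was found for 33 members (86.8%), against 50.1% of all tested genes. The median log2 fold change of the 38 was 0.23, against 0.0006 over all tested genes, and the median standard error of a member was 0.25. The genes of the list share cells and libraries, so their common direction is not a set of separate measurements.

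Both the count and the median moved with the scaling and with the adipocyte markers. When the libraries were scaled to 10 pan-endothelial genes outside the list, the median log2 fold change was -0.10 for the members and -0.31 for all tested genes, and *Egfl7* alone remained past the limits in the higher direction. When they were scaled to 10 epithelial genes, the medians were 0.66 and 0.44, and 16 members were past the limits in the higher direction. With the adipocyte score as a covariate, which was chosen after seeing the data, the members' median was 0.04 and that of all tested genes was 0.01. In that fit 3 members were higher, *Egfl7*, *Sox17* and *Icam2*, and the share of all tested genes is not given. The members' median exceeded that of all tested genes by 0.23 with TMM, by 0.21 and 0.22 with the pan-endothelial and epithelial scalings and by 0.03 with the adipocyte score, the least of all alternatives. The most was 0.39, with the muscle score and without replicate 3 labelled Thy-Tet1-/-. The adipocyte score, the mean log2 CPM of the 11 adipocyte genes, was 5.59, 4.12 and 3.28 in Thy-Tet1+/+. In the Thy-Tet1-/- labelled libraries it was 7.13, 6.17 and 4.75. The score thus partly followed the label, and the fit with this covariate cannot tell score and label apart.

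**Figure D1:**
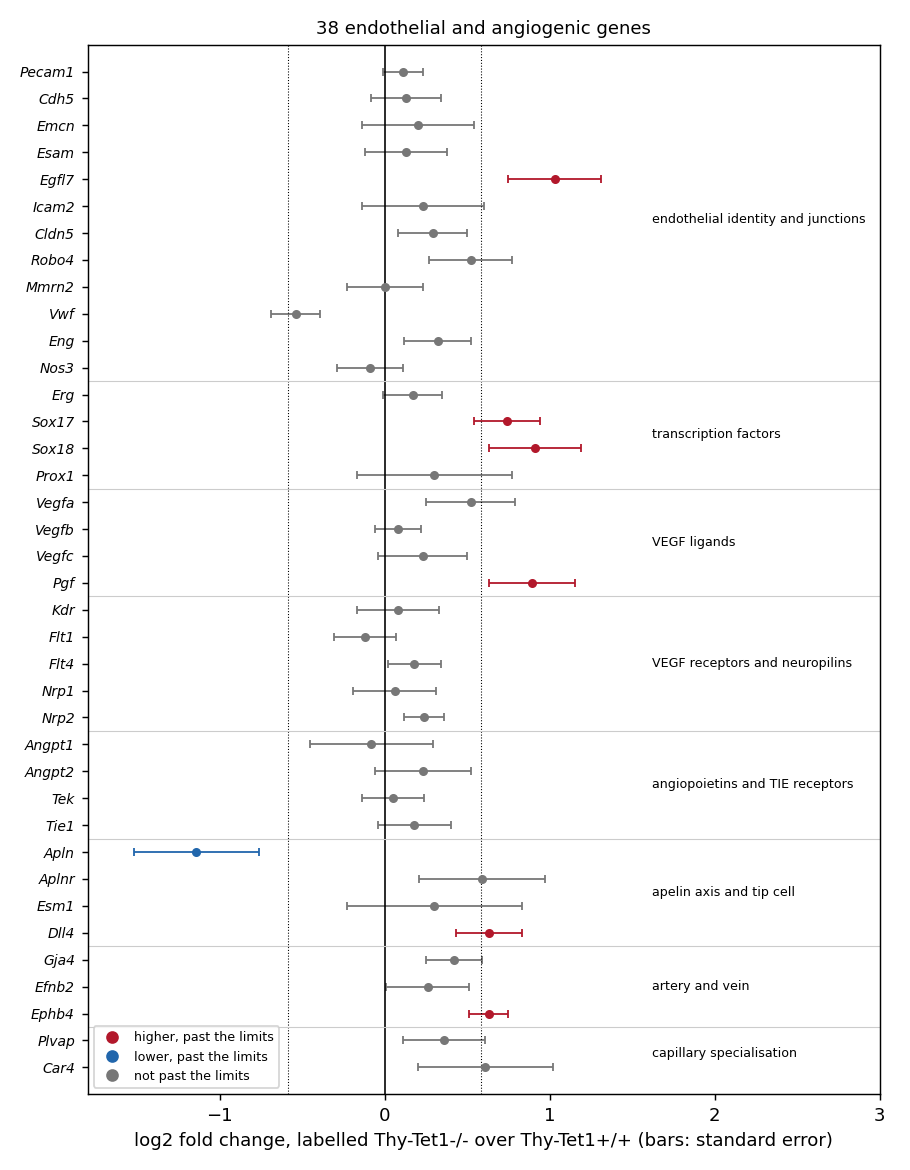
Log2 fold change (x axis; points, with the standard error as bars) of the 38 genes between the Thy-Tet1-/- labelled libraries and Thy-Tet1+/+, grouped by role; dotted lines mark a 1.5-fold change up or down. Red points are the 6 genes higher past the limits, the blue point is *Apln*, the 1 lower gene, and 33 of the 38 points lie right of 0.

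The Thy-Tet1-/- labelled libraries did not contribute equally. Replicate 3 was the lowest of its group for 31 members (81.6%), against 36.3% of all tested genes. Replicates 1 and 2 were both above all 3 Thy-Tet1+/+ libraries for 17 members (44.7%), against 17.5% of all tested genes. In 10 of these 17, namely *Pecam1*, *Cdh5*, *Robo4*, *Eng*, *Erg*, *Vegfb*, *Flt4*, *Tie1*, *Aplnr* and *Plvap*, replicate 3 fell back among the Thy-Tet1+/+ libraries or below them. The summed level of the 38 genes was 2108, 2006 and 2348 CPM in Thy-Tet1+/+ and 2883, 2695 and 2227 CPM in replicates 1, 2 and 3 labelled Thy-Tet1-/-, so the groups overlapped. Adipocyte markers had the same order within the Thy-Tet1-/- labelled libraries, highest in replicate 1 and lowest in replicate 3. Within Thy-Tet1+/+ the orders differed. There the adipocyte sums were 866, 503 and 338 CPM, lowest in replicate 3, where the summed level of the members was highest. The part of the adipocyte markers in the vessel genes beyond the covariate fit was not tested. Without replicate 3 the median of the members was 0.36 and 8 were higher past the limits, and without replicate 2 the median was 0.08 and 3 were higher. The shares of all tested genes past the limits in these fits are not given, so these counts describe the members alone.

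**Figure D2:**
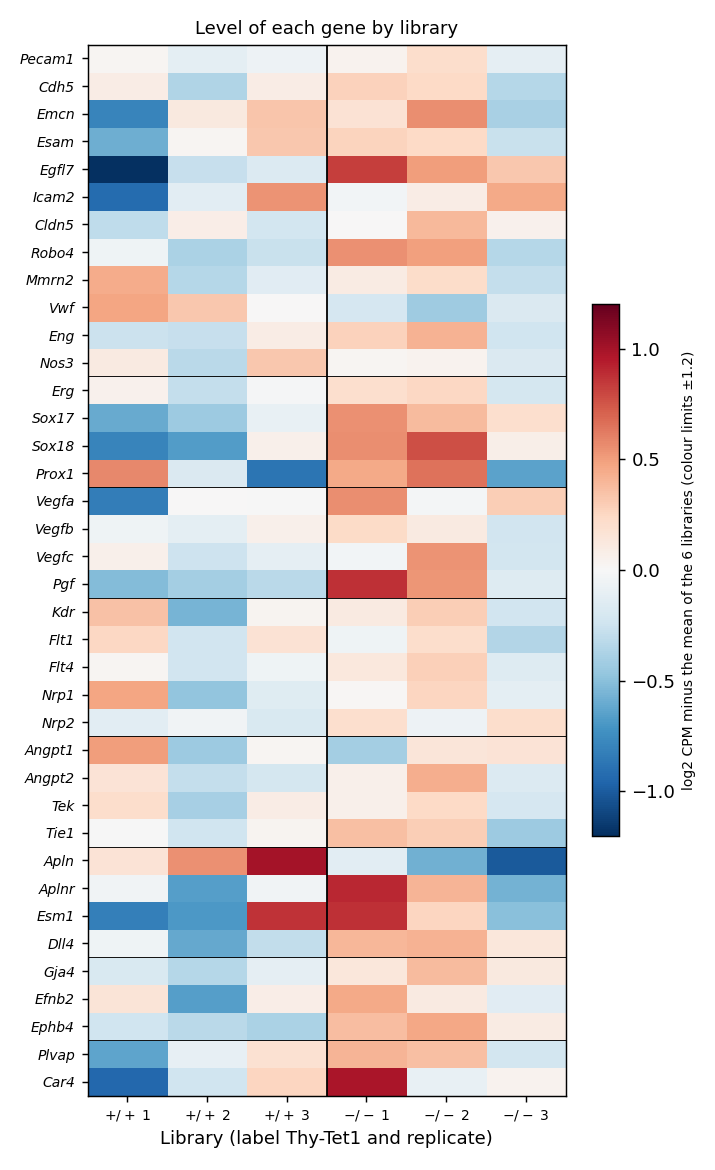
Log2 CPM of each gene minus its mean over the 6 libraries (colour; red above, blue below, limits ±1.2), by library, with Thy-Tet1+/+ on the left and the Thy-Tet1-/- labelled libraries on the right of the line; black lines divide the roles. The columns of replicates 1 and 2 labelled Thy-Tet1-/- are mostly red, and replicate 3 is the lowest of its group for 31 of the 38 genes.

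Of the 7 genes past the limits, 5 had an entry in the RefSeq promoter sequences of GRCm38.p6, as had 25 of all 38 members. *Sox17* and *Sox18* had none. The windows run from 250 bases before the transcript start to 50 bases after it. They are shown for 3 genes that rose, one from each of the identity, tip cell and vein roles, and for the one that fell. Capitals mark AGGAAG, the core bound by ETS factors such as ERG, and GGGCGG, the GC box bound by SP factors, on either strand (CTTCCT and CCGCCC on the printed strand). The *Egfl7* window lies at chr2:26580833-26581132 on the plus strand, at the outermost of its 3 listed starts. It is inside the gene as annotated by GENCODE, which begins at chr2:26580014. The windows of *Dll4* and *Ephb4* lie at chr2:119325534-119325833 and chr5:137349859-137350158 (both plus), and that of *Apln* at chrX:48034804-48035103 (minus).
Egfl7: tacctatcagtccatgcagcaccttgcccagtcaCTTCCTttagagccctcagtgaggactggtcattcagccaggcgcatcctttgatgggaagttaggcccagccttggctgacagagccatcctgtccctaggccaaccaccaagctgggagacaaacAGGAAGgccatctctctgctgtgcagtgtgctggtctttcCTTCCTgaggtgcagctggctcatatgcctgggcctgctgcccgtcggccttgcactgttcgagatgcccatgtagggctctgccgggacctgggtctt
Dll4: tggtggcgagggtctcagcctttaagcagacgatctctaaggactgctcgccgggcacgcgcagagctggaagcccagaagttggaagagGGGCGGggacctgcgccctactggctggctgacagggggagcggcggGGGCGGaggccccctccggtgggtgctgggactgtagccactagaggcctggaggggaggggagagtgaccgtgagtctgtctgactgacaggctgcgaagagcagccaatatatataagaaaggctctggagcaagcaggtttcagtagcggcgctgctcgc
Ephb4: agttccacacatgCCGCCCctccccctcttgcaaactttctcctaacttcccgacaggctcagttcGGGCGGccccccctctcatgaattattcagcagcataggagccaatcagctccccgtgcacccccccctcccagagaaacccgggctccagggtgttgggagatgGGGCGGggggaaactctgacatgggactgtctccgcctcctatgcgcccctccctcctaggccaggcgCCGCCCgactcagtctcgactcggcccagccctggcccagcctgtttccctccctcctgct
Apln: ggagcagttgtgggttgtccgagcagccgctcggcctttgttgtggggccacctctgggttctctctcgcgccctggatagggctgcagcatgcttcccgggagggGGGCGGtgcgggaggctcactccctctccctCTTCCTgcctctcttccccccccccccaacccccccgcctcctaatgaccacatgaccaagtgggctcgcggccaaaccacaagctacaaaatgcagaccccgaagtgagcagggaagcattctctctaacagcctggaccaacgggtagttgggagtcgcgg

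The *Egfl7* window held 3 matches to AGGAAG and 0 to GGGCGG. Those of *Dll4* and *Ephb4* held 2 and 4 matches to GGGCGG and 0 to AGGAAG, and that of *Apln*, whose direction was opposite, held 1 of each. No marked stretch overlaps another in these windows. Over the 32 listed promoters of the members, 31.2% held AGGAAG, against 35.4% of all 32851 promoters. GGGCGG was found in 62.5% of the members' promoters, against 35.7% of all. A SOX-type ACAAT was found in 15.6%, against 31.0% of all, and TGGGAA, the core of the notch effector RBPJ, in 28.1%, against 25.6%. Matches on either strand were counted and are descriptions of letters, not binding sites.

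The 12 identity and junction genes had a median log2 fold change of 0.16. One rose past the limits, none fell, and 10 of the 12 had values above 0. *Egfl7* (NCBI gene 353156; GRCm38 chr2:26580014-26593120), which encodes a protein that endothelial cells secrete into the vessel wall, had 18.0, 34.4 and 37.2 CPM in Thy-Tet1+/+ and 73.8, 58.8 and 52.2 CPM in the Thy-Tet1-/- labelled libraries. All 3 of the latter were above all 3 of the former, and replicate 1 of each group lay at the outer edge, and the log2 fold change came to 1.03 (standard error 0.28, unadjusted p = 0.00839, adjusted p = 0.136 from edgeR with Benjamini-Hochberg adjustment). It stayed past the limits with each library left out in turn, and was 0.71 with pan-endothelial scaling and 1.25 with the adipocyte score. By DESeq2 the adjusted p was 0.0104, and the alternatives spanned 0.0104 to 0.390. Its exons share 64 bp with *Agpat2* on the opposite strand, and 264 bp with *Gm20532* and 73 bp with *Mir126a* on its own strand, so a part of its counts is uncertain.

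*Vwf*, which encodes the von Willebrand factor stored in endothelial granules, had the reverse order. It had 71.9, 64.9 and 51.8 CPM in Thy-Tet1+/+ and 44.9, 38.4 and 46.0 CPM in the Thy-Tet1-/- labelled libraries, with no overlap. At a log2 fold change of -0.54 (standard error 0.15, unadjusted p = 0.00964, adjusted p = 0.144 from edgeR with Benjamini-Hochberg adjustment) it lay just inside the limit of size and was not counted. Without Thy-Tet1+/+ replicate 3 it was -0.67, and without replicate 1 or replicate 3 labelled Thy-Tet1-/- it was -0.60 each time, past the limits. It was also past them with pan-endothelial scaling (-0.85), and with the adipocyte score (-0.66) or the muscle score (-0.64) as a covariate. It was -0.44 without Thy-Tet1+/+ replicate 1, -0.47 without replicate 2 labelled Thy-Tet1-/-, -0.36 with library totals (unadjusted p = 0.0797) and -0.12 with epithelial scaling (unadjusted p = 0.645). By DESeq2 the adjusted p was 0.0446, and the alternatives spanned 0.0446 to 0.761. Relative to *Pecam1* in the same library, *Vwf* counts were 0.455, 0.455 and 0.347 in Thy-Tet1+/+ and 0.280, 0.213 and 0.320 in the Thy-Tet1-/- labelled libraries. Megakaryocytes and platelets also hold *Vwf*. Of 7 of their markers 2 had enough counts to be tested, the 7 summed to 4.03 to 14.7 CPM in Thy-Tet1+/+ and to 10.9 to 13.7 CPM in the Thy-Tet1-/- labelled libraries, and their part in the *Vwf* values was not tested.

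The genes used most often to recognise endothelium did not pass the limits. *Pecam1*, the adhesion receptor CD31, had 158, 143 and 149 CPM in Thy-Tet1+/+ and 160, 180 and 144 CPM in the Thy-Tet1-/- labelled libraries, with a log2 fold change of 0.11 (standard error 0.12). *Cdh5*, the cadherin of endothelial junctions, had 65.5 ± 11.2 and 71.5 ± 15.8 CPM (SD, n = 3 each). *Emcn*, *Esam*, *Icam2* and *Cldn5*, a sialomucin, a pair of adhesion molecules and a tight junction protein, had log2 fold changes of 0.20, 0.13, 0.23 and 0.29 with standard errors of 0.34, 0.25, 0.37 and 0.21. *Mmrn2*, a matrix protein of vessels, had 52.1 ± 15.4 and 52.0 ± 9.07 CPM (SD, n = 3 each). *Nos3*, the endothelial nitric oxide synthase, had 16.0 ± 3.48 and 14.9 ± 1.16 CPM (SD, n = 3 each), and its exons share 294 bp with *Atg9b* on the opposite strand. *Eng*, a co-receptor for BMP9, was at 64.7, 63.6 and 82.0 CPM and at 93.9, 103 and 65.3 CPM, a log2 fold change of 0.32 (standard error 0.20). *Robo4*, a guidance receptor of endothelium, was at 32.3, 25.6 and 27.8 CPM and at 48.9, 47.0 and 26.3 CPM. Replicates 1 and 2 under the Thy-Tet1-/- label exceeded every Thy-Tet1+/+ library and replicate 3 was inside their range, so it passed the limits only when that library, of the 6, was left out. The groups overlapped for all of these genes.

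Of the 4 transcription factors, 2 rose past the limits and none fell, with a median log2 fold change of 0.52. *Sox17* (NCBI gene 20671; chr1:4490931-4497354), an SRY-box factor of arterial endothelium, had 8.78, 9.89 and 12.6 CPM in Thy-Tet1+/+ and 19.5, 17.4 and 15.4 CPM in the Thy-Tet1-/- labelled libraries. Its groups did not overlap, and the log2 fold change was 0.74 (standard error 0.20, unadjusted p = 0.00731, adjusted p = 0.130 from edgeR with Benjamini-Hochberg adjustment). It passed the limits with each library left out in turn, and was 0.43 with pan-endothelial scaling, short of them. Its exons share 804 bp with *Gm37587* on the opposite strand. *Sox18* (NCBI gene 20672; chr2:181669836-181671640), a close relative needed for vessel and lymphatic development, had 18.3, 19.9 and 33.1 CPM and 46.5, 54.3 and 33.2 CPM. Here replicate 3 of both groups stood at nearly one level and the others lay far apart. The log2 fold change of *Sox18* was 0.91 (standard error 0.28, unadjusted p = 0.0152, adjusted p = 0.170 from edgeR with Benjamini-Hochberg adjustment). Its unadjusted p rose to 0.0537 without Thy-Tet1+/+ replicate 1 and to 0.0546 without Thy-Tet1+/+ replicate 2 or without replicate 2 labelled Thy-Tet1-/-. It was 0.0583 with the adipocyte score, and pan-endothelial scaling left a log2 fold change of 0.58, just inside the limit.

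*Erg*, an ETS factor that maintains endothelial identity, had 20.6, 16.3 and 19.6 CPM in Thy-Tet1+/+ and 22.8, 23.6 and 17.1 CPM in the Thy-Tet1-/- labelled libraries, overlapping, with a log2 fold change of 0.17 (standard error 0.18). Counts of *Sox18* relative to *Erg* were 0.885, 1.22 and 1.68 in Thy-Tet1+/+ and 2.04, 2.30 and 1.94 in the Thy-Tet1-/- labelled libraries. Those of *Sox17* relative to *Erg* were 0.425, 0.609 and 0.641 and then 0.854, 0.737 and 0.902. Neither ratio overlapped between the labels, but *Sox17* and *Sox18* by themselves did not overlap either, so the ratios are no separate support. *Prox1*, the factor that specifies lymphatic endothelium, ranged from 4.27 to 11.7 CPM in Thy-Tet1+/+ and from 5.03 to 12.3 CPM in the Thy-Tet1-/- labelled libraries. With a standard error of 0.47 around a log2 fold change of 0.30, a difference in *Prox1* was not detectable here.

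**Figure D3:**
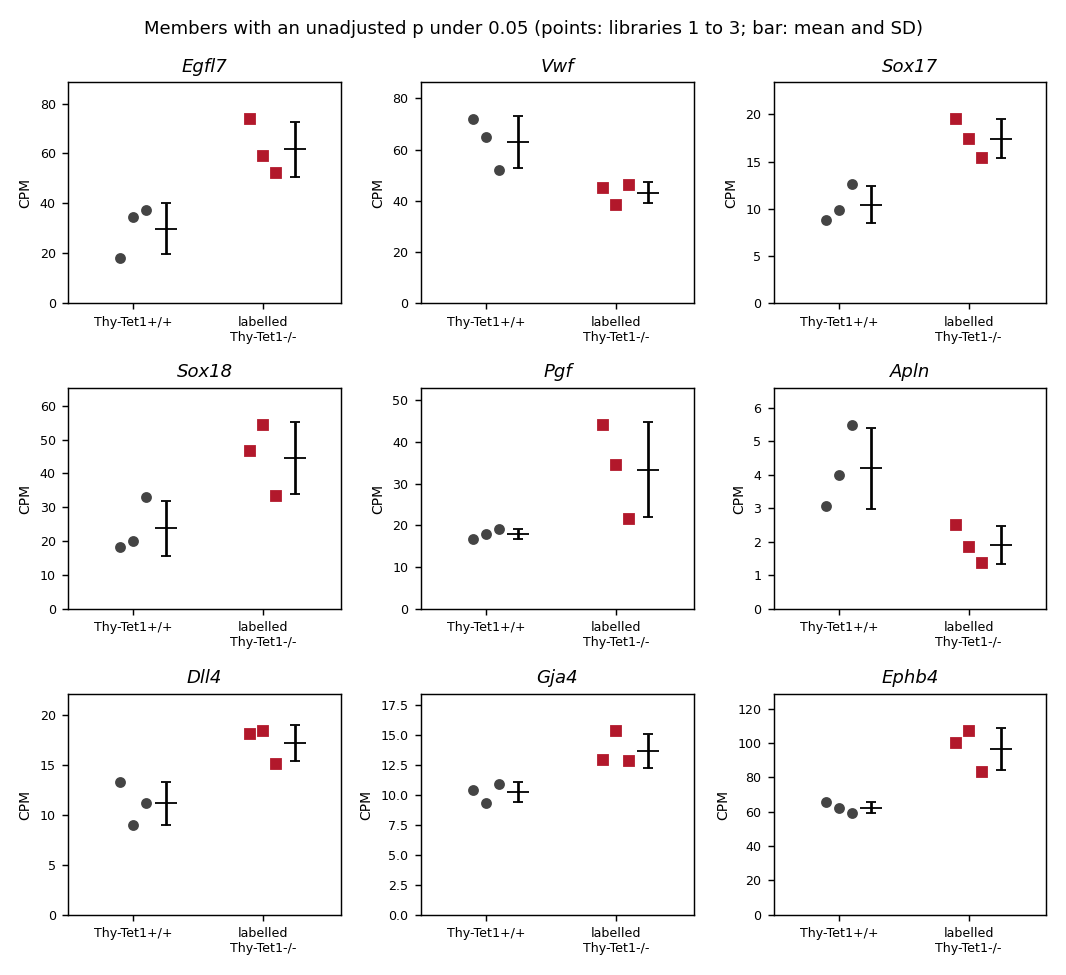
CPM (y axis, from 0) of the 9 members with an unadjusted p under 0.05, by label (x axis); points are replicates 1 to 3 from left to right, and the horizontal mark and bar are the mean and SD (n = 3). The groups do not overlap for any of the 9, *Sox18* coming closest at 33.1 against 33.2 CPM. The genes were selected by that p from these same libraries, so the lack of overlap is no separate result.

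Among the 4 VEGF ligands, *Pgf* rose past the limits and none fell. *Pgf* (NCBI gene 18654; chr12:85166635-85177790) encodes placental growth factor, a ligand of FLT1. It had 16.7, 18.0 and 19.2 CPM in Thy-Tet1+/+, within a narrow range. In the Thy-Tet1-/- labelled libraries it had 44.1, 34.5 and 21.5 CPM, highest in replicate 1 and lowest in replicate 3. The log2 fold change was 0.89 (standard error 0.26, unadjusted p = 0.0110, adjusted p = 0.151 from edgeR with Benjamini-Hochberg adjustment). It passed the limits with each library left out in turn, at 0.61 to 1.12. With the adipocyte score as a covariate it was 0.51 (unadjusted p = 0.190) and with pan-endothelial scaling 0.53, no longer past them.

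*Vegfa*, the main growth factor for fenestrated capillaries and one that follicular epithelium secretes, was the most abundant member per length. It had 286, 510 and 508 CPM in Thy-Tet1+/+ and 752, 501 and 625 CPM in the Thy-Tet1-/- labelled libraries, which overlapped because replicate 2 labelled Thy-Tet1-/- lay below both upper Thy-Tet1+/+ libraries. The log2 fold change was 0.52 (standard error 0.27), inside the limits. *Vegfb*, a second ligand of FLT1, had 48.5 ± 3.11 and 51.4 ± 8.13 CPM (SD, n = 3 each). *Vegfc*, the ligand of the lymphatic receptor FLT4, had 6.84 ± 0.724 and 8.0 ± 2.30 CPM (SD, n = 3 each). Neither differed beyond the spread between replicates.

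None of the 5 VEGF receptors and neuropilins passed the limits in either direction, and their median log2 fold change was 0.08. *Kdr*, the principal signalling receptor for VEGFA, had 188, 100 and 151 CPM in Thy-Tet1+/+ and 159, 181 and 126 CPM in the Thy-Tet1-/- labelled libraries. *Flt1*, a high-affinity receptor that also acts as a decoy, had 187, 135 and 178 CPM and 152, 183 and 124 CPM. *Flt4* had 18.2 ± 1.59 and 20.6 ± 3.07 CPM (SD, n = 3 each). The co-receptor genes *Nrp1* and *Nrp2* had 191 ± 65.5 and 199 ± 26.5 CPM, and 47.2 ± 2.24 and 55.8 ± 5.65 CPM (SD, n = 3 each). For *Kdr*, *Flt1* and *Nrp1*, the lowest Thy-Tet1+/+ library was replicate 2, and the groups overlapped throughout. The standard errors of these 5 log2 fold changes ran from 0.12 for *Nrp2* to 0.25 for *Kdr* and *Nrp1*.

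The 4 angiopoietin and TIE genes also had none past the limits, and a median log2 fold change of 0.12. *Angpt1*, the ligand that stabilises vessels, had 3.80, 1.98 and 2.72 CPM in Thy-Tet1+/+ and 2.02, 2.96 and 3.00 CPM in the Thy-Tet1-/- labelled libraries. *Angpt2*, its context-dependent antagonist, had 5.10, 3.74 and 3.94 CPM and 4.74, 6.16 and 4.06 CPM. The count of *Angpt2* relative to *Angpt1* was 1.34, 1.89 and 1.45, and then 2.35, 2.08 and 1.36, overlapping. *Tek*, the receptor of both, had 39.3 ± 8.19 and 40.8 ± 6.11 CPM (SD, n = 3 each), and *Tie1*, its co-receptor, had 62.1 ± 6.16 and 70.5 ± 19.6 CPM (SD, n = 3 each).

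The apelin and tip cell genes held one rise and one fall. *Apln* (NCBI gene 30878; chrX:48025146-48034853) encodes apelin, a peptide made by the tip cells of sprouting vessels. It had 26, 75 and 99 counts in Thy-Tet1+/+ and 46, 31 and 27 counts in the Thy-Tet1-/- labelled libraries, which correspond to 3.08, 4.01 and 5.49 CPM and to 2.51, 1.84 and 1.37 CPM. The groups did not overlap in CPM, and the log2 fold change was -1.14 (standard error 0.38, unadjusted p = 0.0201, adjusted p = 0.184 from edgeR with Benjamini-Hochberg adjustment). Several alternatives ended this call. The unadjusted p was 0.0759 without Thy-Tet1+/+ replicate 3, 0.0579 without replicate 2 labelled Thy-Tet1-/- and 0.0521 without replicate 3 labelled Thy-Tet1-/-. It was 0.0621 with the replicate number as a block, 0.0682 with the muscle score and 0.104 with the adipocyte score as a covariate, and 0.150 with epithelial scaling.

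The receptor gene *Aplnr* had 15.9, 10.3 and 15.9 CPM in Thy-Tet1+/+ and 30.5, 21.7 and 11.0 CPM in the Thy-Tet1-/- labelled libraries, an overlap made by replicate 3. *Aplnr* did not pass, at a log2 fold change of 0.59 with a standard error of 0.38 (unadjusted p = 0.165). There were 2.56 to 5.15 *Aplnr* counts for each *Apln* count in Thy-Tet1+/+ and 8.0 to 12.2 in the Thy-Tet1-/- labelled libraries, without overlap. The CPM of *Apln* alone did not overlap either, so this ratio is no separate support. *Dll4* (NCBI gene 54485; chr2:119325784-119335962), the notch ligand by which tip cells restrain their neighbours, had 13.3, 8.98 and 11.2 CPM and 18.1, 18.4 and 15.1 CPM, again without overlap. The log2 fold change of *Dll4* was 0.63 (standard error 0.20, unadjusted p = 0.0156, adjusted p = 0.171 from edgeR with Benjamini-Hochberg adjustment). It was below the limit of size without Thy-Tet1+/+ replicate 2 (0.49), without replicate 1 labelled Thy-Tet1-/- (0.57) and without replicate 2 labelled Thy-Tet1-/- (0.58), with the adipocyte score (0.42) and with pan-endothelial scaling (0.31). *Esm1*, a proteoglycan of tip cells that VEGF induces, was the most scattered member, at 15.1, 16.6 and 48.7 CPM and at 49.0, 31.9 and 18.9 CPM.

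The 3 artery and vein genes had a median log2 fold change of 0.42. *Ephb4* (NCBI gene 13846; chr5:137350109-137378669), the ephrin receptor of veins, had 65.7, 62.0 and 59.4 CPM in Thy-Tet1+/+ and 100, 107 and 83.0 CPM in the Thy-Tet1-/- labelled libraries. The Thy-Tet1+/+ libraries stood close together, and all 3 others were above them. Its log2 fold change of 0.63 had the smallest p of all members (standard error 0.12, unadjusted p = 0.00159, adjusted p = 0.0965 from edgeR with Benjamini-Hochberg adjustment). By DESeq2 the adjusted p was 8.23e-04, and the alternatives spanned 8.23e-04 to 0.356. The change lay close to the limit of size, and was below it without replicate 1 (0.58) or replicate 2 (0.55) labelled Thy-Tet1-/-, with the adipocyte score (0.47) and with pan-endothelial scaling (0.30). Per *Pecam1* count, *Ephb4* counts were 0.416, 0.434 and 0.398 in Thy-Tet1+/+ and 0.625, 0.591 and 0.577 in the Thy-Tet1-/- labelled libraries. Its exons share 33 bp with *Zan* on the opposite strand.

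*Efnb2*, the arterial ligand of that receptor, had 72.7, 41.4 and 68.9 CPM in Thy-Tet1+/+ and 89.7, 70.3 and 59.4 CPM in the Thy-Tet1-/- labelled libraries, which overlapped. The number of *Ephb4* counts per *Efnb2* count overlapped too, at 0.904, 1.50 and 0.862 and at 1.12, 1.52 and 1.40. *Gja4*, a connexin of arterial endothelium, had 10.4, 9.30 and 10.9 CPM and 12.9, 15.3 and 12.8 CPM. Its groups did not overlap, but at a log2 fold change of 0.42 (standard error 0.17, unadjusted p = 0.0443) it was within the limit of size.

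The 2 genes of capillary specialisation did not pass. *Plvap*, which forms the diaphragms of fenestrae, had 92.8, 134 and 163 CPM in Thy-Tet1+/+ and 191, 185 and 123 CPM in the Thy-Tet1-/- labelled libraries. Its log2 fold change of 0.36 had a standard error of 0.25. *Car4*, a membrane-bound carbonic anhydrase of capillaries, had 4.03, 6.58 and 9.27 CPM and 15.3, 7.29 and 7.98 CPM, of which replicate 1 labelled Thy-Tet1-/- alone lay outside the Thy-Tet1+/+ range. The log2 fold change of *Car4* was 0.61 with a standard error of 0.41 (unadjusted p = 0.182).

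Levels of different genes were compared per kilobase of annotated exon. On this scale *Vegfa* came first in Thy-Tet1+/+, at 102 ± 30.0 CPM per kilobase (SD, n = 3), followed by *Plvap* at 65.3 ± 17.7, *Vegfb* at 30.2 ± 1.94 and *Pecam1* at 24.1 ± 1.25. *Nrp1*, *Eng*, *Kdr* and *Cdh5* came next with 19.5 ± 6.69, 17.3 ± 2.54, 16.2 ± 4.89 and 15.6 ± 2.67, neighbours that did not differ beyond their spread. The lowest were *Angpt2* at 1.15 ± 0.199, *Prox1* at 0.913 ± 0.451 and *Angpt1* at 0.544 ± 0.176 CPM per kilobase. Of the genes past the limits, *Sox18* went from 14.7 ± 5.01 to 27.6 ± 6.58 CPM per kilobase, above *Kdr* at 17.2 ± 3.08 in the Thy-Tet1-/- labelled libraries. *Apln* stood at 1.33 ± 0.386 and 0.605 ± 0.181 CPM per kilobase, among the 4 lowest members in Thy-Tet1+/+.

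**Figure D4:**
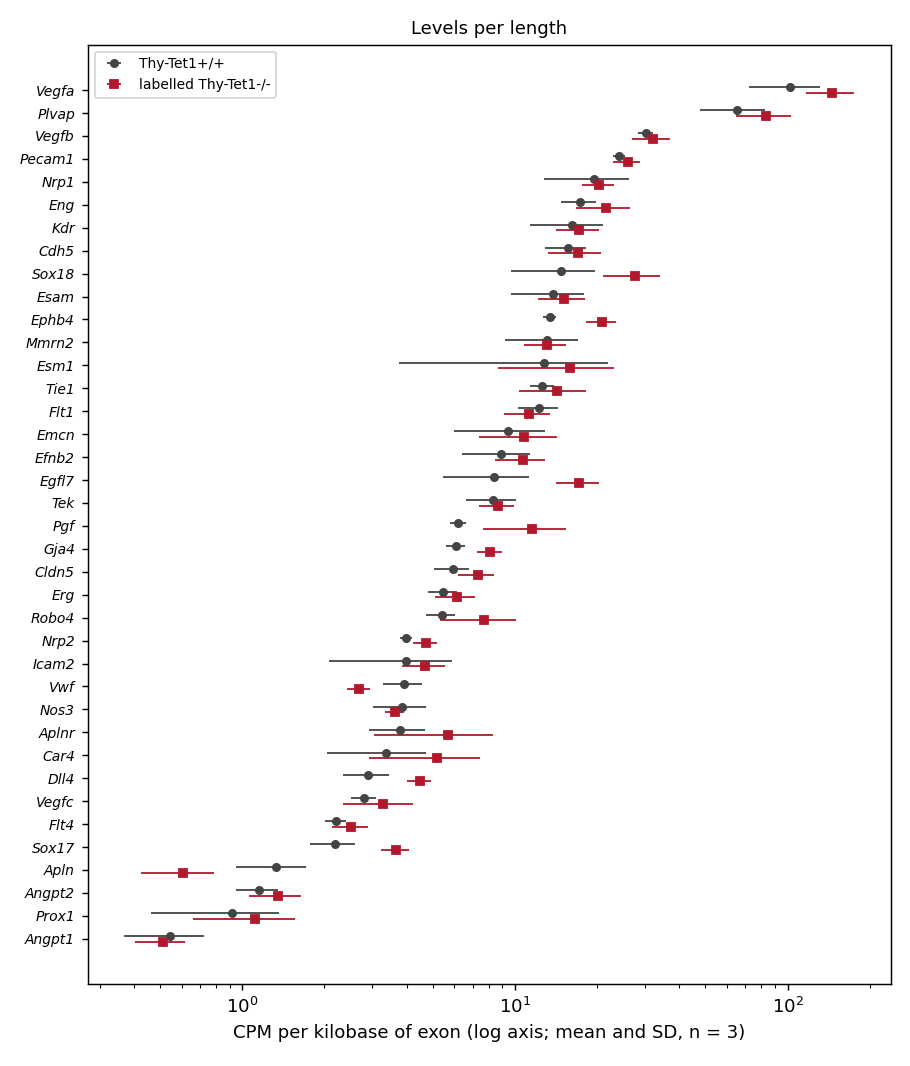
CPM per kilobase of annotated exon (x axis, log scale; mean and SD, n = 3) of the 38 genes, in Thy-Tet1+/+ (grey circles) and in the Thy-Tet1-/- labelled libraries (red squares), in the order of the Thy-Tet1+/+ level. The levels run from 102 CPM per kilobase for *Vegfa* to 0.544 for *Angpt1*, and the bars of most pairs overlap.

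Other genes of the same cells and pathways were read from lists drawn up for this purpose, and each count below stands beside 5.54% higher and 3.66% lower among all tested genes. The number of the 17 alternative fits in which a gene stayed past the limits is given with it. Epithelial and pan-endothelial scaling were among these fits. Each took a list below as its reference, and was no separate check of that list. Of 10 further pan-endothelial genes, *Clec14a*, *Myct1* and *Ushbp1* rose past the limits (30.0%) and *S1pr1* fell (1 of 10). *Clec14a* and *Myct1* stayed past them in 17 fits, *S1pr1* in 16 and *Ushbp1* in 10. *Ushbp1* was lost when any library but replicate 3 of either label was left out, at 0.57 to 0.81. *Clec14a*, a lectin-like receptor of vessels, went from 24.0, 16.6 and 19.6 CPM in Thy-Tet1+/+ to 54.8, 45.6 and 29.8 CPM. *S1pr1*, the receptor that keeps endothelial junctions closed in response to sphingosine 1-phosphate, went from 45.3, 44.8 and 46.1 CPM to 23.5, 25.4 and 23.9 CPM. This was -0.90 on the log2 scale, with a standard error of 0.10 and an edgeR adjusted p (Benjamini-Hochberg) of 0.0466. That adjusted p was 0.242 with the replicate block and ran from 1.24e-09 to 0.310 over the alternatives. With epithelial scaling the log2 fold change of *S1pr1* was -0.47, inside the limits.

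Of 39 tested genes of the wider VEGF, angiopoietin, notch and apelin pathways, 4 rose (10.3%) and 1 fell (2.56%) past the limits. *Hey1*, a transcriptional target of notch, went from 10.3, 5.78 and 8.77 CPM in Thy-Tet1+/+ to 15.6, 15.5 and 13.9 CPM, 0.86 on the log2 scale with a standard error of 0.24, and stayed past the limits in 15 fits. The others higher were *Efna1* (0.75, 15 fits), *Angptl4* (0.71, 14 fits) and *Vegfd* (1.05, 9 fits), and *Adamts1*, a protease that restrains VEGF, was lower (-1.12, 16 fits). *Vegfd* was 0.61 without replicate 2 labelled Thy-Tet1-/- (unadjusted p = 0.189), and leaving out any Thy-Tet1+/+ library also ended its call. *Efna1* was 0.55 without Thy-Tet1+/+ replicate 1 and *Angptl4* was 0.46 without replicate 1 labelled Thy-Tet1-/-, both inside the limits.

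Of 17 further endothelial transcription factors, *Ets1* rose (5.88%), while *Klf2* and *Klf4*, which respond to laminar flow, fell (11.8%). *Ets1* had 62.5, 47.1 and 53.2 CPM in Thy-Tet1+/+ and 56.9, 81.4 and 133 CPM in the Thy-Tet1-/- labelled libraries, overlapping. Its highest value was in replicate 3, which had the most *Ptprc* and *Cd3e* but not the highest leukocyte sum. A link to these markers was not tested. The log2 fold change of *Ets1* was 0.74, and 0.34 without replicate 3 labelled Thy-Tet1-/- (unadjusted p = 0.123). *Ets1* stayed past the limits in 8 fits, of which 1 left out a library. *Klf2* had 38.3, 54.2 and 54.5 CPM and 28.0, 27.7 and 31.5 CPM, without overlap, at -0.76 (14 fits). *Klf4* was at -0.75 (13 fits), and at -0.52 without Thy-Tet1+/+ replicate 2. With epithelial scaling *Klf2* and *Klf4* were at -0.29 and -0.26, inside the limits.

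Of 24 further capillary, vein and artery genes, *Cd36* (1.37, 12 fits), *Fabp4* (1.55, 13 fits) and *Icam1* (1.13, 12 fits) rose (12.5%) and *Rgcc* (-1.03, 16 fits) fell (4.17%). *Cd36* and *Fabp4* are expressed by adipocytes too, and *Fabp4* was also in the adipocyte list. With the adipocyte score as a covariate they were at 0.20 and 0.37, inside the limits, but *Fabp4* is itself part of that score. Without replicate 1 labelled Thy-Tet1-/- they were at 0.86 and 0.91, with unadjusted edgeR p of 0.128 and 0.0553. Both also lost their call without Thy-Tet1+/+ replicate 2 or replicate 3, and *Cd36* without replicate 2 labelled Thy-Tet1-/-. *Icam1* lost its call without Thy-Tet1+/+ replicate 3 or without replicate 1 or replicate 3 labelled Thy-Tet1-/- (1.22, 1.10 and 0.97).

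Of 7 lymphatic genes, which include *Flt4* and *Prox1*, *Lyve1* rose (1.09, 12 fits; 14.3%) and none fell. Its unadjusted p was 0.0641 without replicate 2 labelled Thy-Tet1-/-, 0.0568 without Thy-Tet1+/+ replicate 1 and 0.0529 without Thy-Tet1+/+ replicate 3. Of 14 genes of pericytes and vascular smooth muscle, *Pdgfrb* (0.68, 13 fits) and *Kcnj8* (1.41, 17 fits) rose (14.3%), none fell, and the median was -0.06. *Kcnj8*, a potassium channel subunit of pericytes, went from 6.17, 6.15 and 4.94 CPM in Thy-Tet1+/+ to 18.6, 15.9 and 11.4 CPM. *Pdgfrb* was 0.34 with the adipocyte score, 0.57 without replicate 1 labelled Thy-Tet1-/- and 0.54 without Thy-Tet1+/+ replicate 3, inside the limits. Of the 10 epithelial genes, *Cdh1* (14 fits), *Krt8* (16), *Krt19* (12) and *Krt7* (17) fell and none rose, with a median of -0.48. Each list was described by these counts alone.

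**Figure D5:**
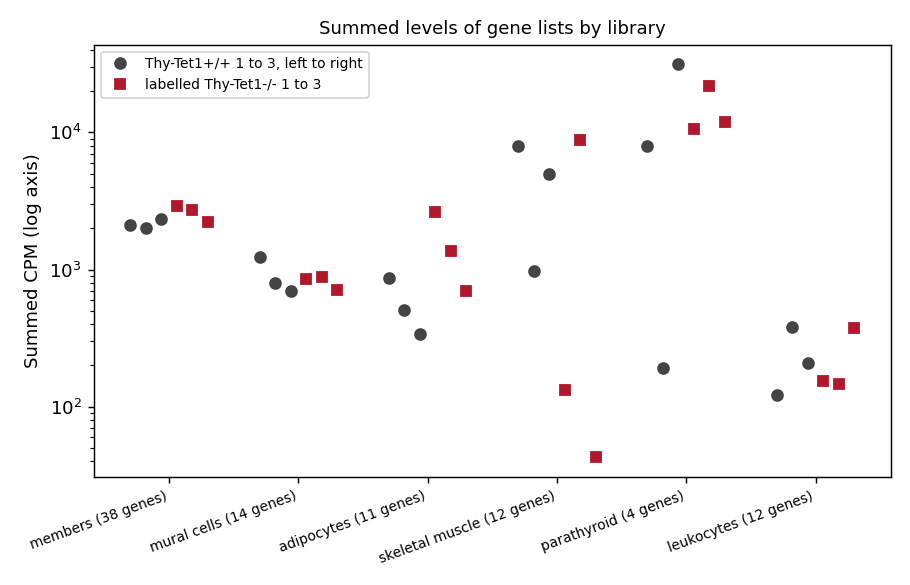
Summed CPM (y axis, log scale) of the 38 members and of 5 marker lists in each library; circles are Thy-Tet1+/+ and squares the Thy-Tet1-/- labelled libraries, replicates 1 to 3 from left to right. The members span 2006 to 2883 CPM, the muscle genes 43.0 to 8723 CPM, and the adipocyte genes lie at 338 to 866 CPM in the circles and at 702 to 2644 CPM in the squares.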

How the data were processed

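RNA was measured in 6 thyroid libraries, 3 per label, each labelled as a separate biosample, so p-values measure the spread between these samples. The protocol deposited with them describes poly(A)-selected, directional libraries, but speaks of retinas and names more than one kit. The authors deposited raw read counts per gene, without normalization. Per the labels the genome build was mm10. The aligner, the counting program and its use of strand are not given in the sources used here. There were 0 further value columns, and 27 symbols that had become dates were restored from NCBI gene identifiers.

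Testing was done with edgeR 4.0.16 under R 4.3.3 (filterByExpr, TMM, glmQLFit and glmQLFTest, two-sided), with Benjamini-Hochberg adjustment over 14143 genes. The common biological coefficient of variation was 0.327, and floors of 3 counts cover counting error only. Standard errors were derived from the fold change and the F statistic. Gene positions, overlaps and merged exon lengths came from GENCODE M21 and promoters from RefSeq, both on GRCm38. The code was tested on simulated counts. The named genes were the 38 members, *Tet1*, and, from the wider lists, genes past the limits and defining markers of other cells. The members and lists were chosen with earlier results of these data known. Alternatives were RLE size factors, library totals, epithelial or pan-endothelial scaling, DESeq2 1.42.0, limma-voom (limma 3.58.1), other count filters, a muscle score, a replicate block and the omission of each library in turn. An adipocyte score covariate was chosen after seeing the data.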

Additional observations from a re-analysis of the deposited data

How the results depend on the processing

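Across 11 alternatives and the 6 fits with 1 library left out, 13 of the 38 members kept their direction in every fit and 25 did not; 0 of the 7 members past the limits changed direction. The limits were met by 1301 of all tested genes (60.2% higher), 3302 with epithelial scaling (97.3% higher) and 2369 with pan-endothelial scaling (8.40% higher), and the median of all tested genes was 0.44 and -0.31 in these 2 fits, by the construction of the scaling. Members higher numbered 6, then 16 with epithelial scaling, 1 with pan-endothelial scaling, 3 with the adipocyte score and 3 to 8 with a library left out. The share of all tested genes past the limits is not given for the adipocyte score or for a library left out. Members lower numbered 1, then 0 with epithelial scaling, 2 with pan-endothelial scaling, 0 with the replicate block and 0 to 2 with a library left out. The members' median of 0.23 became 0.66 with epithelial and -0.10 with pan-endothelial scaling.

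Pan-endothelial scaling turned the direction of 21 members (*Pecam1* -0.22, *Cdh5* -0.21, *Emcn* -0.15, *Esam* -0.20, *Icam2* -0.03, *Cldn5* -0.04, *Mmrn2* -0.33, *Eng* -0.02, *Erg* -0.16, *Prox1* -0.10, *Vegfb* -0.25, *Vegfc* -0.11, *Kdr* -0.24, *Flt4* -0.15, *Nrp1* -0.26, *Nrp2* -0.07, *Angpt2* -0.10, *Tek* -0.26, *Tie1* -0.16, *Esm1* -0.01, *Efnb2* -0.05, as log2 fold changes). The adipocyte score turned 12 (*Cdh5* -0.14, *Mmrn2* -0.37, *Erg* -0.04, *Prox1* -0.61, *Vegfb* -0.06, *Kdr* -0.20, *Nrp1* -0.23, *Angpt2* -0.02, *Tek* -0.13, *Tie1* -0.15, *Aplnr* -0.08, *Efnb2* -0.02). 3 members changed from negative to positive with library totals (*Nos3* 0.09, *Flt1* 0.05, *Angpt1* 0.10), epithelial scaling (*Nos3* 0.32, *Flt1* 0.28, *Angpt1* 0.30) and the muscle score (*Nos3* 0.04, *Flt1* 0.12, *Angpt1* 0.08), and 1 with limma-voom (*Angpt1* 0.02). With a library left out, the members that changed direction ranged as follows: *Cdh5* -0.01 to 0.30, *Emcn* -0.07 to 0.43, *Esam* -0.08 to 0.34, *Icam2* -0.06 to 0.64, *Mmrn2* -0.16 to 0.26, *Nos3* -0.26 to 0.06, *Vegfb* -0.04 to 0.20, *Vegfc* -0.03 to 0.37, *Kdr* -0.13 to 0.30, *Flt1* -0.27 to 0.0034, *Nrp1* -0.13 to 0.36, *Angpt1* -0.29 to 0.18, *Tek* -0.11 to 0.17, *Esm1* -0.11 to 1.07. The cause of these changes was not tested.

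The replicate numbers are shared between the labels, but same-numbered libraries did not deviate together (r = -0.167, -0.372 and -0.193 across genes, mean -0.244). Of the 6 libraries, 0 correlated best with its own number. Deviations were taken from group means, so the mean of 0.122 for different numbers largely follows from these values and is no separate comparison. With the replicate block 6 members were higher and 0 lower, *Apln* being lost, and it changed no other call among the members. The median standard error of the members was 0.25 on the log2 scale, and no member had fewer than 26 counts. At that standard error *Robo4*, with a log2 fold change of 0.52, had an unadjusted edgeR p of 0.0775. A change of this size relative to its error could therefore miss p under 0.05, and *Robo4* was also inside the 1.5-fold limit.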
